A study of Papio anubis with 60 samples.

Results

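The comparison set 2 histone marks against each other in baboon (Papio anubis) embryonic stem cells (ESC): H3K4me3 and H3K27me3. Its members were all peaks of both marks on chr1 to chr20, 356715 of the 2116963 peaks in 8 lists of the whole series. Of these, 305565 were H3K4me3 peaks (of 336658 in that list) and 51150 were H3K27me3 peaks (of 80633). No threshold chose them. Peaks on the X and on unplaced scaffolds were left out, and within either list no 2 peaks overlapped, so each peak is one region below.

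The series mapped H3K4me3, H3K27ac, H3K27me3 and H3K9me3 by chromatin immunoprecipitation with sequencing (ChIP-seq). The ESC were of lines B4 and B15, with 3 replicates of each line, thus 6 libraries a mark and 6 input libraries. The induced pluripotent stem cells (iPSC, somatic cells reprogrammed to pluripotency) used for comparison were of lines 160-2 and M14939#3, again with 3 replicates of each. Every culture was grown on feeder cells in the same medium, and each library was made from 50000 cells with micrococcal nuclease, an enzyme that cuts between nucleosomes. The labels name no treatment or genetic change. Each cell type rests on 2 lines, and the deposited files give 1 peak list for each mark of a cell type. There are therefore no replicates of a list and no p-values. Peak lists hold no transcript levels, so the labelled cell type was not checked against marker genes.

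H3K4me3 is trimethylation of lysine 4 of histone H3, written by the MLL and SET1 enzymes, and lies at the start sites of active and poised genes. H3K27me3 is written by Polycomb repressive complex 2 and marks genes held silent, often over long stretches. In pluripotent cells many promoters of developmental regulators carry both marks and are known as bivalent. The question asked of the lists was how the extents of both marks lie against each other: which one reaches further, which one encloses the other, and how near they come where they do not meet. H3K27ac, the acetylation of the lysine that Polycomb methylates, marks active promoters and enhancers, and both modifications cannot sit on the same histone tail.

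The chance level was taken from 100 circular shifts, in which all H3K27me3 regions of a chromosome were moved together by the same distance of at least 1 Mb. Shifted values are given as the mean, with the lowest and highest shift where they matter. Intervals of shares are 95% Wilson intervals, and those of observed medians are 95% limits taken from the ranked values. They describe counting error alone, since regions close to each other are not independent. The depth behind the lists is unknown. Fold enrichment is the authors' value of each peak, and it is used to describe and rank peaks within a list. The authors' −log10 q of a peak had a median of 8.20 in the H3K4me3 list and 2.12 in the H3K27me3 list.

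H3K4me3 formed many small regions, and H3K27me3 fewer regions with more of their sequence in wide ones. H3K4me3 covered 135 Mb, 5.20% of the autosomes, in regions with a median width of 276 bp and a maximum of 15176 bp. H3K27me3 covered 53.9 Mb, or 2.08%, in regions with a median width of 446 bp and a maximum of 120311 bp. Regions of 2 kb or wider made up 2.30% of the H3K4me3 regions and 14.8% of the H3K4me3 bases. For H3K27me3 they made up 10.9% of the regions and 55.2% of the bases. The H3K4me3 list has the narrow peak layout and the H3K27me3 list the broad one, in which nearby enriched stretches are joined. How far that layout sets the widths was not tested.

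About 1 in 8 H3K4me3 regions lay on H3K27me3, while nearly 1 in 2 H3K27me3 regions lay on H3K4me3. Of the H3K4me3 regions, 37097 or 12.1% (12.03 to 12.26) shared at least 1 bp with H3K27me3, against 3.06% in shifted lists (2.91 to 3.23). Of the H3K27me3 regions, 24613 or 48.1% (47.7 to 48.6) lay on H3K4me3, against 13.7% in shifted lists (13.1 to 14.4). The excess over the shifts was thus similar from both sides, 3.97 times and 3.51 times. By sequence it was larger: 22.5 Mb lay under both marks, 7.42 times the shifted mean, which was 16.6% of the H3K4me3 bases and 41.7% of the H3K27me3 bases. Without the H3K27me3 regions that touch H3K9me3, the mark of constitutive heterochromatin, the H3K4me3 share was 7.91%, against 2.02% in shifted lists. The excess, 3.92 times, differed little.

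Overlap rose steeply with the width of a region. Of the H3K4me3 regions under 200 bp, 6.37% lay on H3K27me3. The share was 16.0% at 500 to 1000 bp, 41.7% at 1 to 2 kb, 67.0% at 2 to 4 kb and 91.8% (89.4 to 93.7) in the 636 regions of 4 kb or more. Shifted lists gave 2.47% in the narrowest class and 9.93% in the widest, so a wider target accounts for part of the rise by construction. The share of H3K4me3 bases under H3K27me3, which a wide target does not raise, went from 5.71% in the narrowest class to 74.3% in the widest, and stayed between 2.14% and 2.37% in the shifts.

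The share of H3K27me3 regions on H3K4me3 also rose with width, but its ratio to the shifts did not. That ratio was 3.84 under 300 bp, 4.23 at 1 to 2 kb and 1.45 at 10 kb or more, where the shifted share was itself high. Of those under 300 bp, 31.2% lay on H3K4me3, against 8.13% in shifted lists. The share was 75.8% at 1 to 2 kb and 94.5% at 2 to 5 kb, where shifted lists gave 17.9% and 28.3%. Among the 1191 regions of 5 to 10 kb, 7 were free of H3K4me3, and all 514 regions of 10 kb or more lay on it, against 68.8% in shifted lists. By bases, H3K4me3 covered 26.4% of H3K27me3 sequence in the narrowest class, 23.7% at 300 to 500 bp and 56.0% in the widest. Shifted lists gave 5.69%, 5.68% and 5.40%.

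**Figure D1:**
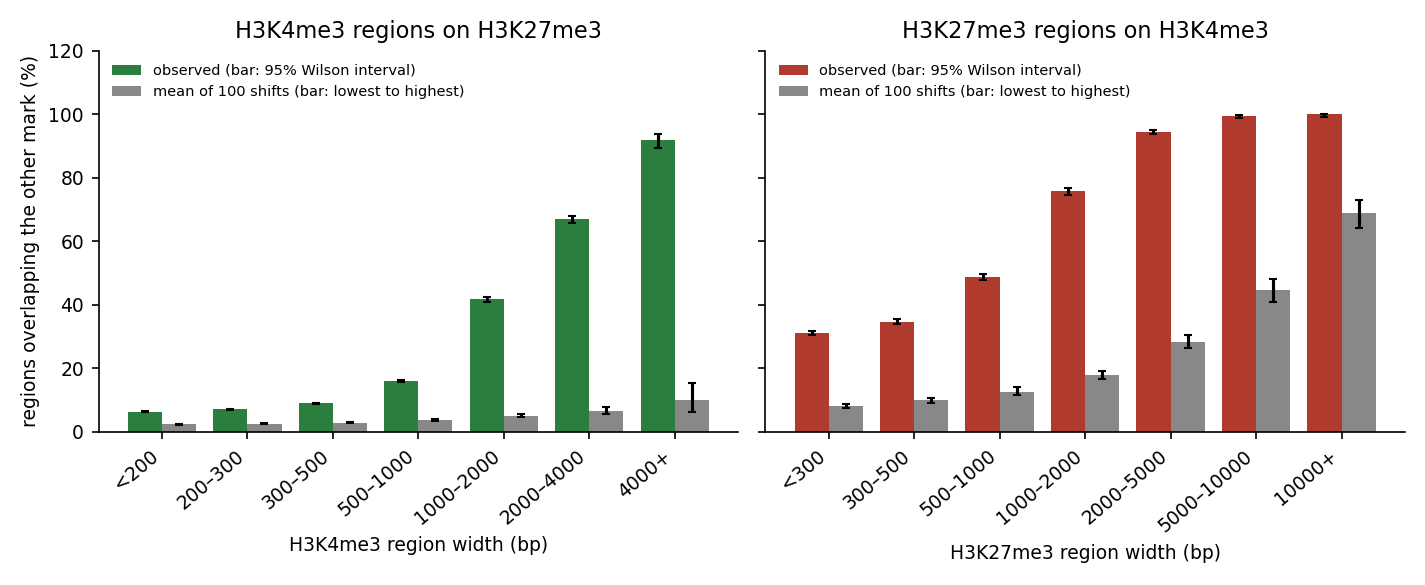
Percent of H3K4me3 regions on H3K27me3 (left) and of H3K27me3 regions on H3K4me3 (right) in 7 width classes each. Coloured bars are observed shares with 95% Wilson intervals and grey bars the mean of 100 shifts with the lowest and highest; the observed share rises from 6.37% to 91.8% on the left and from 31.2% to 100% on the right.

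Both widths mattered at once. Pairs of an H3K4me3 region under 200 bp with an H3K27me3 region of any class were 2.37 to 2.93 times as frequent as in shifted lists. Pairs of an H3K4me3 region of 2 to 4 kb with an H3K27me3 region of 5 to 10 kb were 21.6 times as frequent, 637 against 29.5. With H3K27me3 under 300 bp, the same H3K4me3 class was 5.27 times as frequent as in the shifts. The excess of pairs was thus greatest where both regions were wide.

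Wide regions held a larger part of the doubly marked sequence than of the regions. The 25693 H3K4me3 regions of 1 kb or more were 8.41% of all H3K4me3 regions and held 68.7% of the bases under both marks, though only 33.9% of the H3K4me3 bases. The 5600 H3K27me3 regions of 2 kb or more were 10.9% of that mark's regions and held 67.2% of the bases under both. The 514 H3K27me3 regions of 10 kb or more held 24.1%, and the 636 H3K4me3 regions of 4 kb or more 11.04%.

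Within a width class, regions with a higher fold enrichment overlapped more often in the middle classes, and fold made little difference in the widest H3K4me3 regions. H3K4me3 regions of 1 to 2 kb lay on H3K27me3 in 29.2%, 45.4% and 50.6% of cases when they were divided into 3 equal sets of low, middle and high fold. At 2 to 4 kb the sets gave 66.6%, 66.5% and 67.8%, whose intervals overlap. H3K27me3 regions of 1 to 2 kb lay on H3K4me3 in 61.3%, 75.8% and 90.3% of cases. The median width also rose with fold, from 1210 to 1460 bp in H3K4me3 of 1 to 2 kb, so fold and width are not fully separated there.

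Nesting went both ways, and no pair had the same bounds. Of the 39354 overlapping pairs, 41.3% had the H3K4me3 region wholly inside H3K27me3, 15.3% had H3K27me3 wholly inside H3K4me3, and 43.4% were staggered, each mark extending past the other on one side. Shifted lists gave 49.7%, 10.4% and 39.9%. Measured per region, 43.8% (43.3 to 44.3) of overlapping H3K4me3 regions were nested, below the 50.9% in shifted lists (48.9 to 52.8). Of the overlapping H3K27me3 regions, 24.4% (23.9 to 24.9) were nested in H3K4me3, above the 14.2% in shifted lists (13.1 to 15.4). At the stricter peak limits that share was 16.0%, against 9.66% in shifted lists.

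Within width classes, the nested share of H3K4me3 was close to or below the shifts up to 1 kb and above them in each class from 1 kb up. Overlapping H3K4me3 regions were wider than H3K4me3 regions at large, with a median of 559 bp. Under 200 bp, 68.8% of those that overlapped were nested, against 73.5% in shifted lists, and at 300 to 500 bp the shares were 50.8% and 50.7%. At 1 to 2 kb, 24.1% were nested, against 19.3%. At 2 to 4 kb the values were 29.8% and 9.59%, and at 4 kb or more 44.7% (40.7 to 48.7) and 4.24%. The nested share was thus lowest at 1 to 2 kb and rose again in the widest regions. For H3K27me3 the nested share only fell with width, from 59.3% under 300 bp to 1.55% at 2 to 5 kb, and was above the shifted mean in each of these classes.

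Each region was put in 1 of 4 positions: nested in the other mark, holding at least 1 whole region of the other mark, staggered, or free. Among H3K4me3 regions, 16258 were nested, 5779 held a whole H3K27me3 region, 15060 were staggered and 268468 were free. Those holding an H3K27me3 region had a median width of 1454 bp and a median fold of 8.40. The nested ones had 331 bp and 3.85, the staggered ones 656 bp and 5.34, and the free ones 261 bp and 3.43. Among H3K27me3 regions, 7382 held a whole H3K4me3 region, with a median width of 2405 bp and a median fold of 4.06. Nested H3K27me3 regions numbered 6006 (316 bp, 3.04), staggered ones 11225 (638 bp, 3.11) and free ones 26537 (353 bp, 2.88). An enclosing region is wider by construction, and fold rose with width. Within a width class the positions differed less in fold. H3K27me3 regions of 1 to 2 kb had median folds of 3.62 when nested, 3.52 when staggered, 3.47 when holding H3K4me3 and 3.11 when free. H3K4me3 regions of 2 to 4 kb had 10.1 when nested, 10.3 when staggered, 10.6 when holding H3K27me3 and 10.2 when free.

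**Figure D2:**
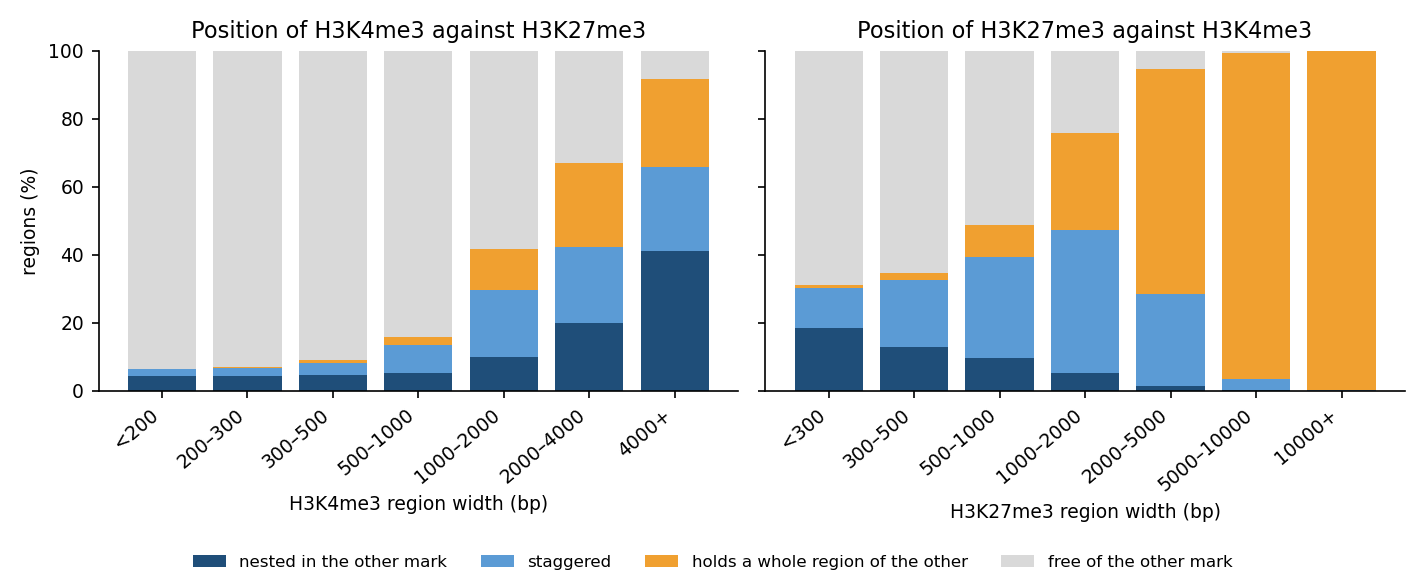
Share of regions in each of 4 positions against the other mark, by region width, for H3K4me3 (left) and H3K27me3 (right); each bar adds up to 100%. The nested part of H3K4me3 is 4.39% in the narrowest and 41.04% in the widest class while that of H3K27me3 shrinks, and all 514 H3K27me3 regions of 10 kb or more overlap H3K4me3.

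Where H3K27me3 ran over an edge of an H3K4me3 region, the distance it went on varied widely around a median of about 1 kb. The overhang was measured from each H3K4me3 edge that lay under H3K27me3 to the end of that H3K27me3 region. It thus runs across any further H3K4me3 on its way, and H3K27me3 regions with many H3K4me3 regions enter many times. Its median was 1131 bp (1110 to 1148) over 49654 edges, its quartiles 386 and 3325 bp and its 90th percentile 9709 bp. The overhang was 1 kb or more at 53.4% of edges and 5 kb or more at 18.5%. Shifted lists gave a median of 940 bp (872 to 1014), so the observed value was 1.20 times as long. That order was not stable: with strict peaks the median was 1882 bp against 2075 bp in shifts, and with peaks joined over short gaps it was 1884 against 3277 bp. It was 715 bp, against 564 bp, without H3K27me3 regions that touch H3K9me3.

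H3K4me3 reached less far past H3K27me3. From the 29179 H3K27me3 edges under H3K4me3, it extended a median of 364 bp further, against 266 bp in shifted lists, with quartiles of 105 and 939 bp and a 90th percentile of 1573 bp. At 23.0% of these edges it extended 1 kb or more, against 15.6% in shifts. Of all H3K27me3 edges, 28.5% lay under H3K4me3, against 5.69% in shifted lists, and of all H3K4me3 edges 8.12% lay under H3K27me3, against 2.18%.

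Edges of overlapping H3K27me3 regions were inside H3K4me3 more often than in shifted lists. Both edges were under H3K4me3 in 32.9% of overlapping H3K27me3 regions, against 18.0%, and neither edge in 14.4%, against 35.0%. Neither-edge regions are those that carry H3K4me3 only in their interior. For overlapping H3K4me3 regions the split was closer to the shifts, with both edges under H3K27me3 in 47.4% against 51.9% and neither in 13.6% against 9.23%.

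When overlapping regions were chained into connected groups, H3K4me3 was more often the outermost mark. There were 22356 groups, against 6786 in shifted lists, and 66.4% of them were 1 region of each mark. H3K4me3 was outermost at both ends in 29.97% of groups, against 16.2% in shifts, and H3K27me3 in 19.9%, against 37.1%. In 49.5% each mark formed 1 end. Where H3K27me3 was the outer mark at an end it reached a median of 374 bp further, below the 461 bp in shifted lists (436 to 494). Where H3K4me3 was, it reached 263 bp further, above the 236 bp in shifts (224 to 248). For H3K27me3 this order is the opposite of that of its overhang past single H3K4me3 edges, which counts inner edges of a group too. The groups had a median span of 1541 bp, and the 584 that spanned 10 kb or more held 26.8% of the bases under both marks. The shares count each group once whatever its span, so they mostly describe small groups. Neither they nor the shares of regions with both or neither edge covered were split by width.

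The marks were also enriched just outside each other. At 50 bp outside an H3K4me3 edge, H3K27me3 was present at 7.71% of edges, against 2.18% in shifted lists. It was at 7.15% at 1 kb, 4.91% at 5 kb and still 3.20% at 50 kb. These values depended on width. At 50 bp the share was 5.00% for H3K4me3 regions under 200 bp, 37.3% at 2 to 4 kb and 66.0% at 4 kb or more. In that widest class it was still 35.5% at 5 kb. At 50 bp outside an H3K27me3 edge, H3K4me3 was present at 25.1% of edges, against 5.70%. It fell to 22.3% at 200 bp, stood at 23.5% at 500 bp, and was 12.1% at 5 kb and 9.13% at 50 kb. Both profiles were thus above the highest shift at each distance measured, so the regions share neighbourhoods of up to 50 kb as well as sequence. Shifts of 50 to 500 kb, which keep more of that neighbourhood, gave 3.99% for the H3K4me3 share and 17.6% for the H3K27me3 share, still below the 12.1% and 48.1% observed.

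**Figure D3:**
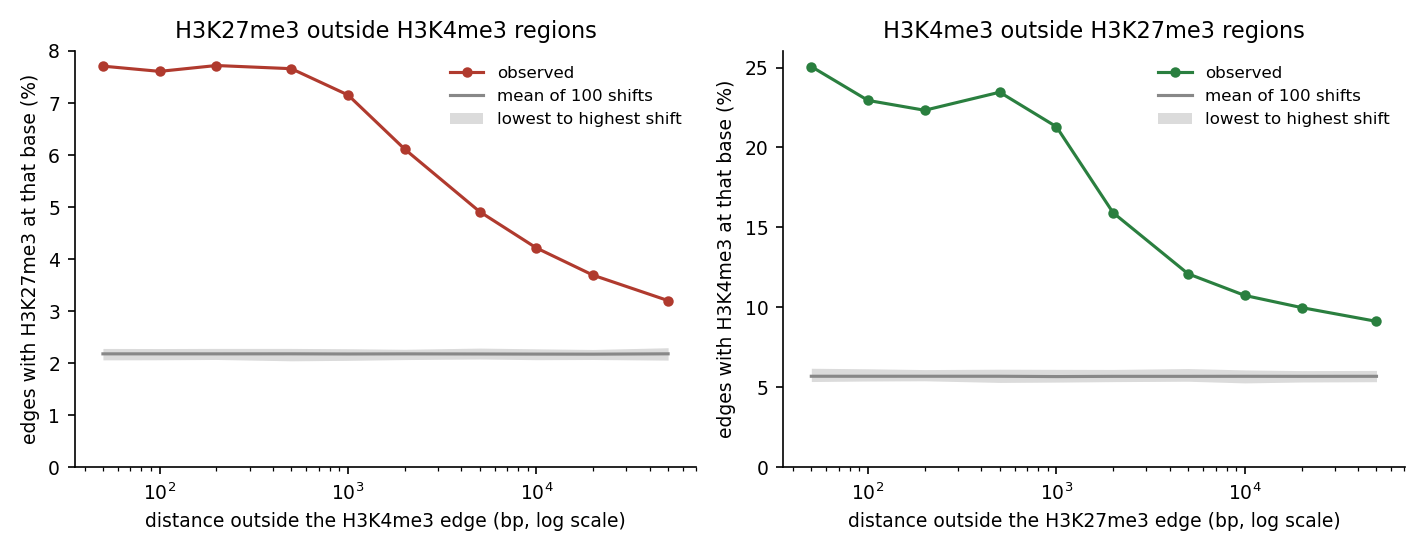
Percent of edges with the other mark present at 10 distances outside the edge (log scale, bp), for H3K27me3 outside H3K4me3 regions (left) and H3K4me3 outside H3K27me3 regions (right). Points are observed values, the grey line and band the mean, lowest and highest of 100 shifts; the left curve goes from 7.71% to 3.20% and the right one from 25.1% to 9.13%.

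The number of H3K4me3 regions on an H3K27me3 region rose with its width. Overlapping H3K27me3 regions under 300 bp met 1.01 H3K4me3 regions on average, those of 2 to 5 kb 2.01, those of 5 to 10 kb 3.43 and those of 10 kb or more 10.2, with a maximum of 113. Neighbouring H3K4me3 regions on the same H3K27me3 region were a median of 236 bp apart (quartiles 149 and 506 bp), a distance that the width of the H3K27me3 region limits. In the other direction, 94.2% of overlapping H3K4me3 regions met a single H3K27me3 region.

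The 3 groups with the most doubly marked sequence each had 1 H3K27me3 region and many H3K4me3 regions. The first, at chr11:50016913-50137223 (coordinates as in the deposited lists), was a single H3K27me3 region of 120 kb with 99 H3K4me3 regions and 82.9 kb under both marks. The second, at chr16:30173062-30286100, had 113 H3K4me3 regions in 113 kb and 68.9 kb under both. The third, at chr12:61869782-61956070, had 62 in 86.3 kb and 54.7 kb under both. H3K27ac covered 0.180% of the group on chr16 and none of the other two, and the iPSC H3K27me3 list covered 97.8% to 98.4% of each. The first 2 also gave the longest overhangs of H3K27me3 past an H3K4me3 edge, 118.2 and 112.2 kb. Which genes lie there is not reported, because the genome build behind these coordinates is not given in the sources used.

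Single regions at the extremes showed each kind of position. The widest nested H3K4me3 region, and the widest of all, was chr2:148986016-149001191, 15176 bp inside an H3K27me3 region of 22661 bp. It had a fold of 6.48, no H3K27ac, and iPSC H3K27me3 over 100% of its length. The next 2, at chr7:27125524-27139310 and chr15:39126577-39138375, spanned 13787 and 11799 bp, also without H3K27ac. The widest nested H3K27me3 regions were chr14:114842718-114849304 (6587 bp), chr16:49558538-49563809 (5272 bp) and chr4:71151742-71156177 (4436 bp). H3K27ac covered 2.20% of the first and none of the others. The longest overhang of H3K4me3, 11.6 kb, belonged to the region chr3:42223011-42234736, 96.3% of which was under H3K27me3, so that it ran past one small H3K27me3 region and into another. The next, 8.85 kb at chr14:114841356-114850384, was the region that encloses the 6587 bp H3K27me3 region.

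The widest free regions were mixed. The widest free H3K4me3 region, chr4:53261336-53270795 (9460 bp), lay 196 kb from any H3K27me3 and was wholly under H3K9me3 in ESC and wholly under H3K27me3 in iPSC. The next, chr18:41181397-41189423 (8027 bp), had H3K27ac over 15.8% of its length, and chr8:66261544-66267811 (6268 bp) over 51.1%. The widest free H3K27me3 regions were chr10:25626010-25634943 (8934 bp), chr16:28609392-28615608 (6217 bp) and chr16:28658147-28664230 (6084 bp). They lay 3927, 3029 and 63 bp from the nearest H3K4me3, and none had H3K27ac.

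H3K27me3 regions that did not touch H3K4me3 still lay near it. The median gap from a free H3K27me3 region to H3K4me3 was 1835 bp (1796 to 1873), against 4726 bp in shifted lists (4568 to 4947). Within 500 bp lay 19.5% of free H3K27me3 regions, against 8.78% in shifts. Within 1 kb lay 34.2%, against 16.0%, and within 10 kb 91.1%, against 72.1%. The most isolated, chr6:80666090-80666264, was 175 kb away.

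Free H3K4me3 regions were much further from H3K27me3, which is the rarer mark. Their median gap was 27.4 kb, against 46.8 kb in shifted lists, with quartiles of 7308 bp and 81.7 kb. Within 1 kb of H3K27me3 lay 6.77% of them, against 3.16% in shifts, and within 50 kb 63.9%, against 51.6%. The most isolated, chr17:42027898-42028087, was 2074 kb from the nearest H3K27me3.

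**Figure D4:**
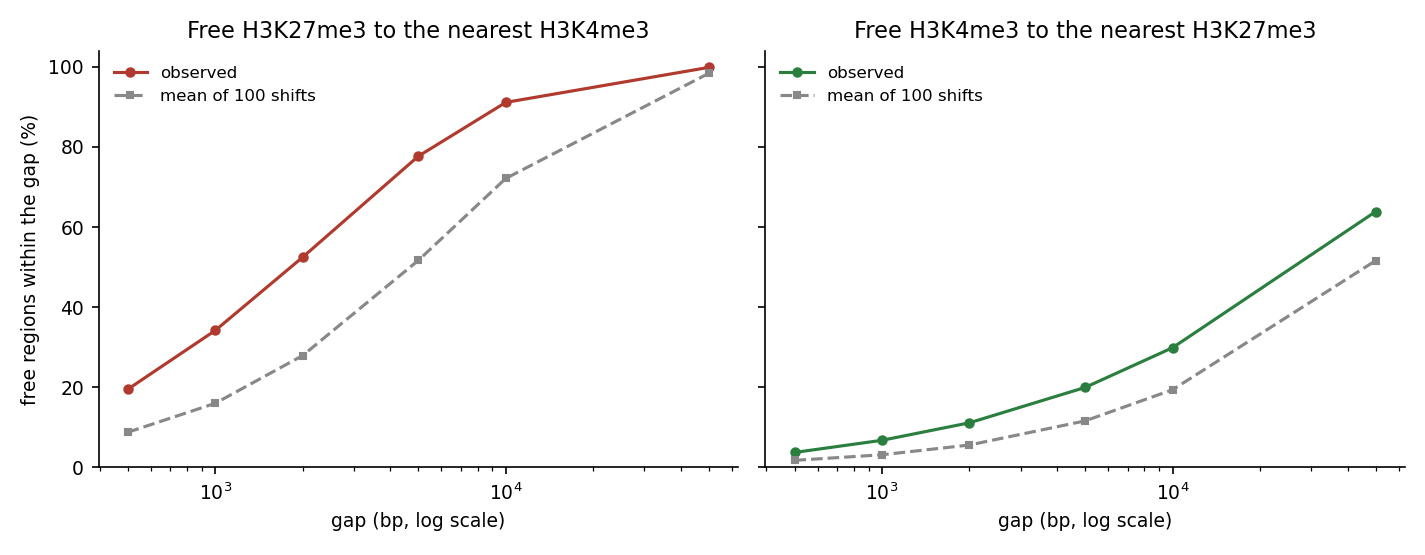
Cumulative percent of free H3K27me3 regions (left) and free H3K4me3 regions (right) within a given gap (bp, log scale) of the nearest region of the other mark. Coloured points are observed values and grey squares the mean of 100 shifts; at 1 kb the observed values are 34.2% against 16.0% on the left and 6.77% against 3.16% on the right.

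Overlap with other lists changed with the gap. Free H3K27me3 regions within 500 bp of ESC H3K4me3 lay on H3K4me3 of the iPSC list in 23.3% of cases, against 6.02% of those over 10 kb away. The iPSC H3K4me3 list lay on 68.7% of free and 89.1% of overlapping ESC H3K4me3 regions. Its share is therefore not independent of the gap to ESC H3K4me3, and no relation is read from it. The same free H3K27me3 regions lay on iPSC H3K27me3 in 23.5% of cases within 500 bp, against 15.1% over 10 kb away. Free H3K4me3 regions within 500 bp of H3K27me3 carried H3K27ac in 33.6% of cases, against 53.3% of those over 10 kb away, although the nearer ones were wider (median 333 against 254 bp). They also lay on H3K9me3 less often, 9.76% against 20.5%.

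H3K27ac separated the positions of H3K4me3 sharply. It was found on 5.38% (5.04 to 5.73) of H3K4me3 regions nested in H3K27me3, 29.5% of staggered ones, 69.6% of those holding a whole H3K27me3 region, and 49.6% of free ones. Since these sets differ in width, they were also compared within width classes. At 2 to 4 kb the shares were 10.99% (9.39 to 12.8) of 1274 nested, 45.2% of 1436 staggered, 81.7% (79.7 to 83.5) of 1572 holding and 93.5% (92.4 to 94.5) of 2112 free regions. At 1 to 2 kb they were 11.1%, 40.1%, 75.5% and 81.9%. H3K4me3 enclosed by H3K27me3 was thus mostly without H3K27ac, and H3K4me3 that itself enclosed H3K27me3 mostly had it.

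The same split appeared along single regions. In nested H3K4me3 regions 1.93% of the bases were under H3K27ac, and in free ones 38.2%. In staggered regions H3K27ac covered 7.19% of the H3K4me3 bases under H3K27me3 and 17.5% of the bases outside it. In regions holding a whole H3K27me3 region the values were 31.5% and 31.6%, so there H3K27ac was no rarer under H3K27me3 than beside it. These bases under H3K27me3 include any H3K27me3 that crosses an edge of such a region, besides the enclosed. The enclosed H3K27me3 regions had a median −log10 q of 2.10, near the 2.12 of the whole H3K27me3 list. Free H3K27me3 regions had 1.84, and the wider ones holding H3K4me3 had 4.81. The H3K4me3 summit, the caller's position of the highest signal, lay under H3K27me3 in 58.6% (57.8 to 59.4) of staggered regions, whose width was under H3K27me3 for 53.4% on average. In holding regions it did so in 56.4% (55.1 to 57.7), against 35.8% of the width. An enclosed region lies in the interior, where summits may also tend to lie, so no relation is read from these shares.

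Seen from H3K27me3, H3K27ac was most frequent on the small regions nested in H3K4me3. H3K27ac was found on 56.7% (55.4 to 57.9) of nested H3K27me3 regions, 21.6% of staggered ones, 16.9% of those holding H3K4me3 and 3.72% of free ones. Under 300 bp, where widths are alike, the shares were 58.3% of 2804 nested, 23.3% of 1774 staggered and 3.64% of 10440 free regions. Over all widths, the median −log10 q was 2.10 for nested, 2.35 for staggered, 4.81 for holding and 1.84 for free H3K27me3 regions. The nested ones thus lay close to the limit of 2 used for firm H3K27me3 peaks. Whether the H3K27ac shares hold among firm or strict peaks was not tested. Of the nested regions, 43.2% lay on iPSC H3K27me3, against 79.1% of those holding H3K4me3. Under 300 bp the nested ones did so in 35.0% of cases, the staggered ones in 25.8% and the free ones in 14.4%. A list made from 6 pooled or combined libraries of 2 lines does not show whether H3K27ac and H3K27me3 were on the same molecules, alleles or cells, and which of these holds was not tested.

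The iPSC H3K27me3 list followed the ESC positions. It lay on 79.3% of ESC H3K4me3 regions nested in ESC H3K27me3, 52.0% of holding ones, 47.3% of staggered ones and 12.01% of free ones. At 2 to 4 kb the values were 99.4%, 73.2%, 84.3% and 44.9%. At 4 kb or more all 261 nested regions were on iPSC H3K27me3, as were 35 of the 52 free ones. Between ESC and iPSC the cell type cannot be told apart from the lines, since each line belongs to 1 cell type.

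**Figure D5:**
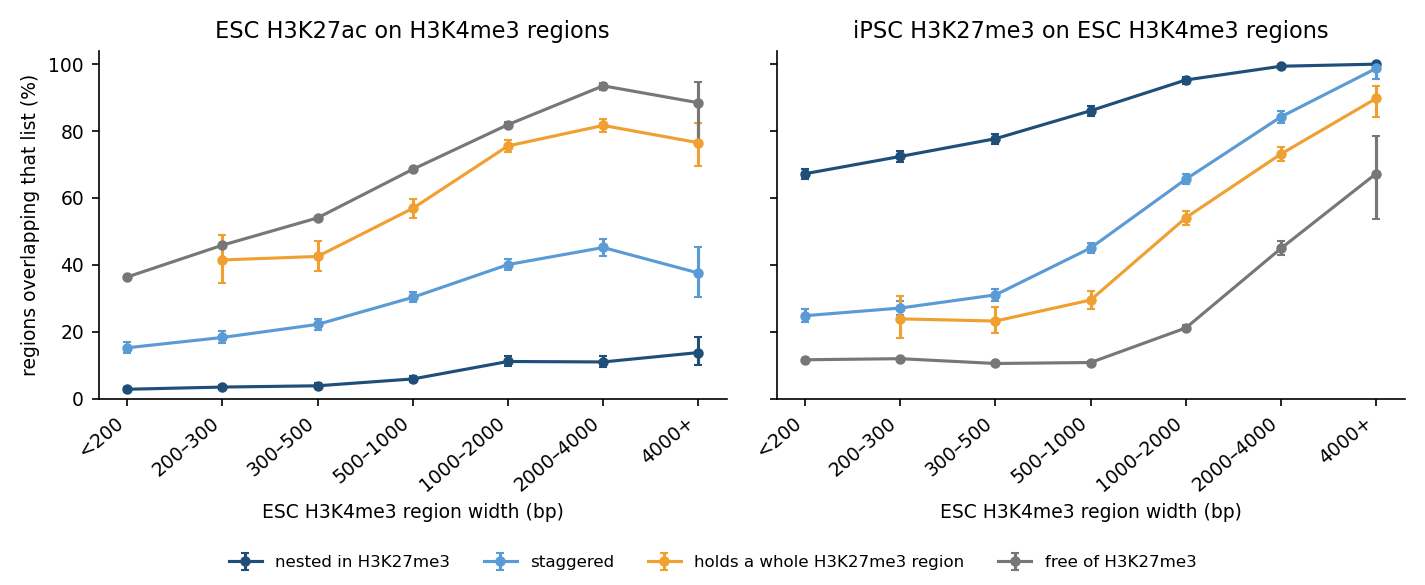
Percent of ESC H3K4me3 regions that overlap ESC H3K27ac (left) and iPSC H3K27me3 (right), by region width, for the 4 positions against ESC H3K27me3; bars are 95% Wilson intervals, and the 28 regions under 200 bp that hold a whole H3K27me3 region are not drawn. Nested regions are lowest on the left (10.99% at 2 to 4 kb) and highest on the right (99.4%), and free regions are highest on the left (93.5%) and lowest on the right (44.9%).

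H3K9me3 differed between the positions. It touched 24.2% of nested H3K4me3 regions, 18.7% of free ones, 16.7% of staggered ones and 14.0% of those holding a whole H3K27me3 region. At 2 to 4 kb these shares were 30.3%, 5.02%, 18.7% and 10.2%. Of the H3K27me3 regions of 10 kb or more, 77.6% touched H3K9me3, against 18.4% of free ones under 300 bp. A wider region has more room to touch another list, and by bases H3K9me3 covered 10.8% of nested and 12.4% of free H3K4me3 sequence. H3K9me3 and H3K27me3 differed as partners of wide H3K4me3 regions, and less so of narrow ones. H3K4me3 lay on H3K9me3 in 18.8% of regions, 1.49 times the shifted mean. At 2 to 4 kb the share was 14.4%, below the 28.5% of shifted lists, where H3K27me3 gave 67.0% against 6.72%. Under 200 bp H3K9me3 gave 21.5% against 10.1%, 2.13 times, and H3K27me3 6.37% against 2.47%, 2.59 times. Of the H3K4me3 regions on H3K9me3, 58.8% were nested in it, against 43.1% in shifts.

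The overlap was present on each autosome. The H3K4me3 share on H3K27me3 was 12.3 ± 2.75% (SD over 20 chromosomes) and ran from 8.91% on chr2 to 19.5% on chr19. The H3K27me3 share on H3K4me3 was 48.3 ± 2.93% and ran from 42.7% on chr15 to 53.0% on chr17. Both were above the highest shift on 20 of 20 chromosomes. The H3K4me3 share relative to the shifts was lowest on chr19, at 2.75 times, and highest on chr5, at 5.84 times. The shifted share that divides it was 7.09% on chr19 and 1.66% on chr5, where H3K27me3 covered 4.61% and 1.29% of the sequence. H3K4me3 coverage was highest on chr19 (10.2%) and lowest on chr5 (3.43%). Coverage by both marks went together over 2584 bins of 1 Mb (Pearson's r 0.705, Spearman's rho 0.762, as a description, since the bins share density of peaks and mappable sequence). The 129 bins with the most sequence under both marks, 5% of all bins, held 28.0% of it, and 199 bins had none.

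The same comparison in iPSC gave a smaller excess of overlap over the shifts and no nearness of free H3K27me3 regions, while wide H3K4me3 overlapped about as often. There 15.3% of H3K4me3 regions lay on H3K27me3, against 5.79% in shifted lists, and 27.8% of 131632 H3K27me3 regions lay on H3K4me3, against 11.7%. The excess was thus 2.65 and 2.39 times, where ESC had 3.97 and 3.51. At 2 to 4 kb, 71.8% of iPSC H3K4me3 regions lay on H3K27me3 (14.5% in shifts), where ESC had 67.0% (6.72%). At 4 kb or more the shares were 94.3% (21.8%) in iPSC and 91.8% (9.93%) in ESC. Overlapping H3K4me3 was nested in 36.4% of cases in iPSC, above the 34.9% in shifts, where ESC was below them. The clearest contrast was in the gaps. Free iPSC H3K27me3 regions lay a median of 5323 bp from H3K4me3, above the 4883 bp in shifted lists, and within 500 bp lay 5.49%, below the 8.43% in shifts. The ESC list had the opposite order on both measures. The iPSC H3K27me3 list is longer, so it was also limited to the 51150 regions with the highest −log10 q, a comparison added after the data were seen. Then 9.11% of the H3K4me3 regions lay on H3K27me3, below the 12.1% of ESC, and the excess was 3.23 times. Of the H3K27me3 regions 35.9% lay on H3K4me3, 2.70 times the shifts, and the median gap was 5858 bp against 4898 bp. Whether the difference is larger than the spread between lines or cultures was not tested, since each cell type has 1 list per mark.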

How the data were processed

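Per the labels, ChIP-seq libraries were made from 50000 cells each. The submitters' processing notes name SAMtools 1.10, Picard, MACS2 and deepTools. The aligner, genome build and thresholds, and how libraries and inputs were combined, were not stated in those sources. The deposited lists give for each peak its bounds, a fold enrichment (a ratio) and the −log10 of its q, all made by the authors' peak caller; the caller's p was not used. Depth is unknown.

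Overlaps of at least 1 bp, nesting, overhangs and gaps were computed in Python 3.11.15 with NumPy 2.4.6, and checked on simulated intervals. Circular shifts (100, seed 7, at least 1 Mb) took each chromosome's length as the furthest peak end in the 6 lists used. Firm peaks had −log10 q of at least 5 (H3K4me3) and 2 (H3K27me3), strict peaks 10 and 3. For the joined alternative, gaps of up to 1 kb (H3K4me3) and 3 kb (H3K27me3) were closed. The iPSC lists of H3K27ac and H3K9me3 were not used.

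Regions were named by rank: the 3 widest nested and free of each mark, the 3 groups with most doubly marked bases, and the 2 longest overhangs each. Gene ends of Panubis1.0, a baboon assembly, lay within 1 kb of H3K4me3 of 1 kb or more in 3.78% of 19158 genes, and in 3.68% and 3.57% after moving them by 500 kb, so no gene is named. The members, width classes and measures were chosen with earlier results of these data known.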

Additional observations from a re-analysis of the deposited data

How the results depend on the processing

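The alternatives, in the order firm peaks, strict peaks, peaks joined over 1 and 3 kb, 50% of the smaller region in common, X included, and H3K27me3 off H3K9me3, gave these values. The H3K4me3 share on H3K27me3 was 10.9%, 12.1%, 11.1%, 10.3%, 13.9% and 7.91%. The H3K27me3 share on H3K4me3 was 57.2%, 66.9%, 56.2%, 40.1%, 39.4% and 47.2%. The nested share of overlapping H3K4me3 was 49.5%, 50.01%, 43.4%, 51.7%, 46.6% and 29.8%, and that of overlapping H3K27me3 20.2%, 16.0%, 31.4%, 29.3%, 21.1% and 28.2%. The median gap of free H3K27me3 was 1886, 2369, 2749, 1392, 2545 and 1754 bp. With 50% of the smaller region in common, H3K27me3 regions with a lesser overlap counted as free with a gap of 0. That made 30634 regions, against 26537 in the main setting, and lowers the median of 1392 bp. These 5 results kept their side of the shifted mean in each alternative. The median overhang of H3K27me3 was 1475, 1882, 1884, 1284, 1012 and 715 bp. It fell below the shifted mean with strict peaks (2075 bp) and with joined peaks (3277 bp), and with firm peaks it was close to it (1463 bp). The cause was not tested. Shifting H3K4me3 in place of H3K27me3 moved no chance level beyond the range of the shifts, and shifts of 50 to 500 kb gave a chance level of 3542 bp for the gap, 48.6% and 16.4% for the nested shares of H3K4me3 and H3K27me3, and 912 bp for the overhang. No paired analysis was possible because each mark has 1 list over all replicates, so no replicate could be left out either. Counts of peaks and widths depend on a depth that is unknown, the marks were called in different layouts, and the input libraries may be shared by both lists, so regions of unusual background could enter both. None of these was tested.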
